A study of Mus musculus with 4 samples.

Results

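The acute phase reactants other than serum amyloid A that are described here are 10 genes, Lcn2, Orm1, Orm2, Orm3, Hp, Hpx, Apcs, Itih4, Steap4 and Cp, measured in the liver of mice with a mutant Wrn gene that drank vitamin C and of untreated wild-type mice. They were taken by symbol from the authors' deposited table of log2 ratios, which names 21260 genes and where 12 of 41174 probes carried 1 of the 10 symbols. The acute phase response is the change in plasma protein synthesis that hepatocytes make when cytokines of the interleukin-6 and interleukin-1 families reach them. Signals through STAT3, NF-kB and C/EBP factors raise some secreted proteins, which bind iron, haem, haemoglobin or microbial ligands, and albumin and other carriers decline.

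Liver came from 4 male Wrn mutant mice on C57Bl/6, aged 3 months, which had drunk water with 0.4% vitamin C since they were weaned, and from 4 untreated wild-type males of the same strain and age. The labels do not name the Wrn allele. On each of 4 two-colour Agilent arrays the Cy5 channel held a mutant animal and the Cy3 channel a wild-type one, so genotype, vitamin C and dye cannot be told apart. The labels call the arrays independent biological replicates. All 4 lay on 1 slide with 1 scan time, per the file headers. Log2 ratios are the authors' own, mutant over wild type, tested against 0 with limma over 39083 probes. Levels are log2 intensities per animal computed from the scanner files. In whole liver, fewer cells of a type and less RNA per cell cannot be told apart. The 3 Wrn probes had mean log2 ratios of 0.46 (limma adjusted p = 0.0140), -0.10 and 0.0022, and since the labels do not say which part of Wrn is altered, they check nothing about the genotype. All 9 measured hepatocyte markers were well above background, with a summed log2 level of 19.91 to 20.11 in mutant livers and 19.64 to 20.03 in wild-type livers.

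Each gene was read by 1 probe of 60 bases, or by 2 for Steap4 and Cp, and the probes are shown because 2 of the genes were judged by probes of different sequence and 3 others are close relatives. Letters are lower case throughout, with no part marked. The orosomucoid genes Orm1, Orm2 and Orm3, neighbours on chromosome 4 that encode forms of alpha-1-acid glycoprotein, each had a probe that the authors' annotation ties to 1 RefSeq transcript.
Orm1 A_51_P336325: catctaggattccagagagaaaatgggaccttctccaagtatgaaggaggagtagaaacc
Orm2 A_51_P141546: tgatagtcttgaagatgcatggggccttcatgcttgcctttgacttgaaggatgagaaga
Orm3 A_51_P311958: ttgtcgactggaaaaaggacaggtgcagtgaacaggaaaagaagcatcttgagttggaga
Lcn2 A_51_P510156: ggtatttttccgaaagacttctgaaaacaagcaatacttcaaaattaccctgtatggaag
Hpx A_51_P325836: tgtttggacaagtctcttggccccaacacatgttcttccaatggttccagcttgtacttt
Steap4 A_51_P143893: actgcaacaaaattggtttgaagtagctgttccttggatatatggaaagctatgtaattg
Steap4 A_52_P182919: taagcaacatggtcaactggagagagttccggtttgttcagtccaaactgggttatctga
Cp A_51_P493234: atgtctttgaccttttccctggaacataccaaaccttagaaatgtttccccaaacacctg
Cp A_52_P597002: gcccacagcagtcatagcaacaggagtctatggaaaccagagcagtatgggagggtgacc
No sequence among the 12 was repeated in the table, and all 12 probes were well above background on every array in both channels, with none saturated. The 2 Steap4 probes were annotated to 1 transcript, NM_054098, and the 2 Cp probes to NM_007752 and NM_001276250.

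Across the 4 arrays, Steap4 and Hpx fell in the mutant livers, and the other 8 genes did not pass the test. Steap4 encodes a metalloreductase of iron and copper, and Hpx the haem-binding plasma protein hemopexin. Of the 12 probes, 3 had a limma adjusted p under 0.05 and all 3 were lower, where 12.2% of all probes were called in either direction, 6.27% as lower and 5.97% as higher. The median log2 ratio of the 10 genes was -0.62, against 0.00 over all probes. The median of the 10 genes was -0.31 with normexp background correction and arrays centred on their medians, in place of the authors' background subtraction and loess. Under that scaling, called median centring below, Steap4 was the 1 gene called, where 7303 of 39083 probes were called. Of the 12 probes, 6 had a ratio below 0 on all 4 arrays, against 18.8% of all probes.

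Most of the difference in the 10 genes lay on array 4. There, 10 of the 12 probes were lower by 2-fold or more in the mutant, and 0 of the 12 were on arrays 1, 2 and 3. Over all probes, 0.443% were lower by that much on array 4, and 0.138%, 0.207% and 0.235% on arrays 1, 2 and 3. The 12 probes had a median log2 ratio of -0.36, -0.38, -0.05 and -1.69 on arrays 1 to 4. Wild-type animal 4 had the highest level of all 8 animals on 11 of the 12 probes, where it was highest on 12.4% of all probes. The exception was the second Cp probe. Array 4 gave the lowest ratio on 10 of the 12 probes, where it did on 25.3% of all probes. With array 4 left out, 1 of the 12 probes passed and was lower, where 1.78% of all probes passed and 1.03% were lower. Then 9 of the 12 had a mean below 0, as did 49.6% of all probes, and the median ratio of the genes was -0.25. The 2-fold limit was chosen after the values were seen.

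**Figure D1:**
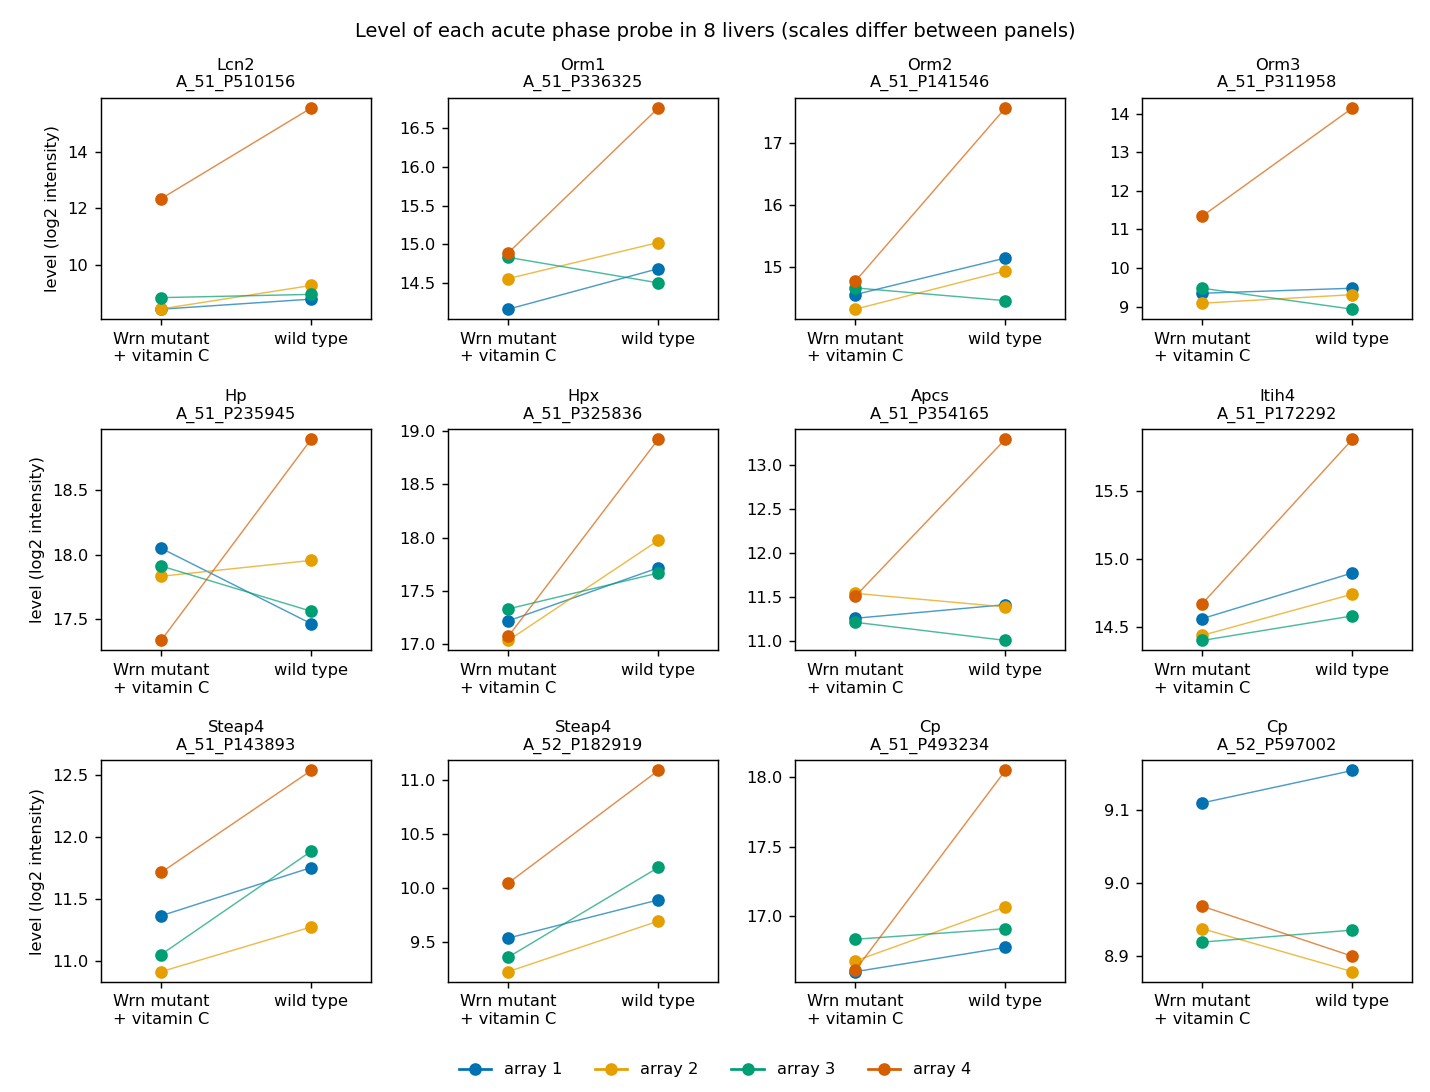
Log2 level of each of the 12 probes in each animal, with the mutant animals on the left and the wild-type animals on the right of each panel; a line joins the pair on 1 array, and each panel has its own axis. Wild-type animal 4 stands highest on every panel but the second Cp probe, and for Hpx all 4 mutant animals lie below all 4 wild-type animals.

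Steap4 was lower in the mutant on all 4 arrays by both probes. On probe A_51_P143893 its log2 level was 11.36, 10.91, 11.05 and 11.71 in mutant animals 1 to 4, and 11.75, 11.27, 11.88 and 12.54 in wild-type animals 1 to 4. The groups overlapped, since mutant animal 4 lay above wild-type animal 2, but within each array the mutant was the lower. The log2 ratios were -0.39, -0.37, -0.84 and -0.83, with a mean of -0.61 ± 0.26 (SD, n = 4; limma adjusted p = 0.0202; 1.52-fold lower). Probe A_52_P182919 gave ratios of -0.37, -0.49, -0.87 and -1.06 and a mean of -0.70 ± 0.32 (SD, n = 4; limma adjusted p = 0.0211; 1.62-fold lower). Arrays 3 and 4 had the larger differences by both probes. Without array 4 the means were -0.53 (limma adjusted p = 0.0576) and -0.58 (limma adjusted p = 0.0493), and without array 2 neither probe passed, at adjusted p = 0.0723 and 0.0799 with larger means of -0.69 and -0.77. Without array 3 neither passed either, at adjusted p = 0.0501 and 0.0553. Of all 39083 probes, 12 passed without array 2, 1577 without array 3 and 697 without array 4.

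Hpx had log2 levels of 17.22, 17.03, 17.33 and 17.07 in mutant animals 1 to 4, and of 17.72, 17.97, 17.67 and 18.92 in wild-type animals 1 to 4. It was the 1 gene of the 10 in which every mutant animal lay below every wild-type animal, as 4.28% of all probes did. Over all probes, 2.9% had every mutant animal above every wild-type animal, so that 7.18% did not overlap in either direction. That separation ended with the signals processed by the scanner software, where the groups overlapped, but those signals were not scaled between arrays. There mutant animal 3, at 17.41, lay above wild-type animal 1, at 17.39, while within each array the mutant was the lower. The log2 ratios were -0.51, -0.95, -0.35 and -1.86, with a mean of -0.92 ± 0.68 (SD, n = 4; limma adjusted p = 0.0463; 1.89-fold lower). The call was narrow: in the authors' deposited table the adjusted p was 0.0570, and it was past the threshold in 4 of 14 alternatives. Without array 4 the mean was -0.61 ± 0.31 (limma adjusted p = 0.0545), and under median centring with all arrays it was -0.27 (limma adjusted p = 0.281).

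Hp encodes haptoglobin, which binds free haemoglobin as hemopexin binds haem. Its log2 level was 18.05, 17.83, 17.91 and 17.34 in mutant animals 1 to 4, and 17.47, 17.96, 17.56 and 18.90 in wild-type animals 1 to 4. Mutant animal 4 was thus the lowest of the 8 animals and wild-type animal 4 the highest. The log2 ratios were 0.57, -0.13, 0.33 and -1.57, and their mean of -0.20 ± 0.96 did not pass (SD, n = 4; limma adjusted p = 0.699; 95% interval -0.96 to 0.56). Without array 4 the mean was 0.26 (limma adjusted p = 0.264), and under median centring it was 0.49 (limma adjusted p = 0.208). The direction of the Hp difference thus turned when array 4 was left out and under the other scaling.

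Lcn2 encodes lipocalin 2, which binds bacterial siderophores and is made by hepatocytes and by neutrophils. Its log2 level was 8.44, 8.45, 8.84 and 12.34 in mutant animals 1 to 4, and 8.79, 9.27, 8.96 and 15.54 in wild-type animals 1 to 4. Both animals of array 4 were far above the others of their groups, and the remaining 6 animals lay between 8.44 and 9.27. The log2 ratios were -0.41, -0.91, -0.13 and -3.21, so the mutant was lower on every array, but the mean of -1.16 ± 1.4 did not pass (SD, n = 4; limma adjusted p = 0.136; 95% interval -2.27 to -0.06 before adjustment). Without array 4 the mean was -0.48 ± 0.40 (limma adjusted p = 0.105).

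The summed level of 11 neutrophil markers was 12.72 to 13.04 in mutant livers and 12.80 to 13.07 in wild-type livers, and 0 of the 11 passed the test. Of these markers S100a9 had its highest level in wild-type animal 4, at 11.16 against 9.95 to 10.30 in the other wild-type animals, and in mutant livers it lay between 9.76 and 10.25. S100a8 likewise reached 8.24 in wild-type animal 4 against 7.19 to 7.32 in the others, with 7.26 to 7.65 in mutant livers. The granule genes Elane and Mpo were not highest in that animal, at 7.93 and 9.63. The summed level of 11 Kupffer cell and macrophage markers was 15.98 to 16.43 in mutant livers and 16.09 to 16.77 in wild-type livers, with the highest value in wild-type animal 4. Their part in the Lcn2 levels was not tested.

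Among markers of the other liver cells, 3 of 7 endothelial and stellate cell genes were lower in the mutant by their brightest probe. So were 1 of 4 cholangiocyte and 1 of 8 lymphocyte genes, where 6.27% of all probes were called lower. The genes called were Col1a1 at -0.35 (limma adjusted p = 0.0350), Kdr at -0.24 (limma adjusted p = 0.0364), Clec4g at -0.35 (limma adjusted p = 0.0394), Sox9 at -0.62 (limma adjusted p = 0.0371) and Cd79b at -0.24 (limma adjusted p = 0.0313). On their other probes Kdr was at 0.20, Clec4g at 0.05 and 0.17, and Sox9 at 0.02 and -0.25, and none of these passed. The other Col1a1 probes were at -0.50, which passed (limma adjusted p = 0.0171), and at 0.06, which did not. The summed endothelial and stellate level was 16.34 to 16.40 in mutant livers and 16.39 to 16.63 in wild-type livers, and the cholangiocyte sum was 10.56 to 11.20 in mutant livers and 10.96 to 11.13 in wild-type livers. The lymphocyte sum was 13.88 to 14.26 in mutant livers and 13.87 to 14.23 in wild-type livers. With the processed signals 0 of the 19 genes of these 3 lists passed, where 1270 of 39083 probes did. Of the 9 hepatocyte markers 2 were higher, Apoh and Tat, and 1 was lower, Hnf4a, by its brightest probe but not by its others. Apob was at -0.04 on its brightest probe (limma adjusted p = 0.932) and at -0.62 on another, which passed (limma adjusted p = 0.0159). Its remaining probes lay between -0.35 and -0.11 and did not pass. The part of these cells in the falls of Steap4 and Hpx was not tested. These marker genes were named after their values were seen.

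The orosomucoid genes shared 1 pattern over the arrays, lower in the mutant on arrays 1, 2 and 4 and higher on array 3. Orm2 had log2 levels of 14.56, 14.32, 14.66 and 14.77 in mutant animals 1 to 4, and of 15.15, 14.94, 14.46 and 17.57 in wild-type animals 1 to 4. Its log2 ratios were -0.59, -0.62, 0.21 and -2.80, with a mean of -0.95 ± 1.29 (SD, n = 4; limma adjusted p = 0.176). Without array 4 the mean was -0.33 (limma adjusted p = 0.244). Mutant animal 4 was close to the other mutants here, unlike for Lcn2.

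Orm3 had log2 levels of 9.35, 9.09, 9.48 and 11.35 in mutant animals 1 to 4, and of 9.48, 9.31, 8.93 and 14.15 in wild-type animals 1 to 4. Both animals of array 4 were raised above the rest of their groups, as for Lcn2. The log2 ratios were -0.14, -0.24, 0.59 and -2.81, with a mean of -0.65 ± 1.49 (SD, n = 4; limma adjusted p = 0.401), which turned to 0.07 without array 4. Orm1 had levels of 14.16, 14.55, 14.83 and 14.89 in mutant animals 1 to 4, and of 14.68, 15.02, 14.50 and 16.76 in wild-type animals 1 to 4. Its ratios were -0.53, -0.47, 0.33 and -1.88, with a mean of -0.64 ± 0.92 (SD, n = 4; limma adjusted p = 0.1996), and -0.22 without array 4 (limma adjusted p = 0.432). The 95% intervals, before adjustment, were -1.36 to 0.09 for Orm1, -1.97 to 0.07 for Orm2 and -1.82 to 0.52 for Orm3. Probes of close relatives can cross-hybridise, and how far the 3 orosomucoid probes do so was not tested. The longest run of letters that any 2 of the 12 probes shared was 8 bases, which compares probes with each other and not with the other genes' transcripts.

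Apcs encodes serum amyloid P component, the pentraxin that serves mice as a main acute phase protein. Its log2 level was 11.26, 11.54, 11.21 and 11.51 in mutant animals 1 to 4, and 11.42, 11.39, 11.01 and 13.30 in wild-type animals 1 to 4. Apart from wild-type animal 4, all animals lay between 11.01 and 11.54. The log2 ratios were -0.16, 0.16, 0.22 and -1.80, with a mean of -0.40 ± 0.95 (SD, n = 4; limma adjusted p = 0.425) that turned to 0.07 without array 4.

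Itih4, a heavy chain relative of the inter-alpha-trypsin inhibitor family, differed less between animals. Its log2 level was 14.56, 14.44, 14.40 and 14.67 in mutant animals 1 to 4, and 14.90, 14.74, 14.58 and 15.88 in wild-type animals 1 to 4. The mutant was lower on every array, with log2 ratios of -0.34, -0.30, -0.18 and -1.22 and a mean of -0.51 ± 0.48 (SD, n = 4; limma adjusted p = 0.0835). Without array 4 the ratios were close together, with a mean of -0.27 ± 0.08 (limma adjusted p = 0.0840).

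Cp encodes ceruloplasmin, the copper-carrying ferroxidase of plasma, and its probes differed. Probe A_51_P493234 had log2 levels of 16.60, 16.68, 16.83 and 16.61 in mutant animals 1 to 4, and of 16.77, 17.07, 16.91 and 18.05 in wild-type animals 1 to 4. Its log2 ratios were -0.19, -0.40, -0.09 and -1.45, with a mean of -0.53 ± 0.63 (SD, n = 4; limma adjusted p = 0.136), while the mean was -0.22 without array 4 (limma adjusted p = 0.152) and 0.03 under median centring. Probe A_52_P597002, on the other transcript, lay between 8.92 and 9.11 in mutant animals and between 8.88 and 9.15 in wild-type animals. Its ratios were -0.05, 0.07, -0.02 and 0.08, with a mean of 0.02 ± 0.06 (SD, n = 4; limma adjusted p = 0.826; 95% interval -0.10 to 0.14). The signal in wild-type animal 4 was thus high on the first probe and not on the second.

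**Figure D2:**
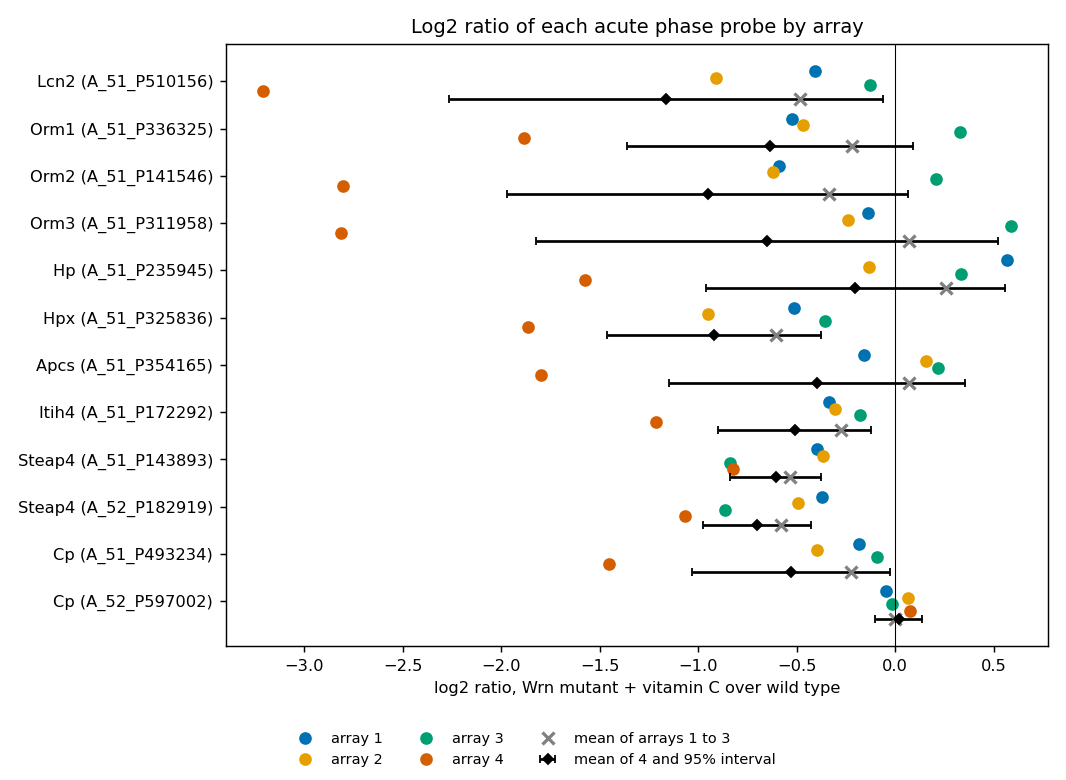
Log2 ratio of each of the 12 probes on each array (coloured points), with the mean of 4 and its 95% interval before adjustment (black) and the mean of arrays 1 to 3 (grey crosses), on a log2 axis. Array 4 gave the lowest ratio on 10 of the 12 probes, and only the 2 Steap4 probes, Hpx, Itih4, Lcn2 and the first Cp probe were below 0 on all 4 arrays.

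The spread between wild-type animals exceeded that between mutant animals for most of the genes. The wild-type levels spanned over 2 log2 units on 5 of the 12 probes, those of Lcn2, Orm1, Orm2, Orm3 and Apcs, as did 0.694% of all probes. Lcn2 spanned 3.90 units in mutant animals and 6.74 in wild-type animals. Orm3 spanned 2.26 units in mutant animals and 5.21 in wild-type animals, and Orm2 spanned 0.45 in mutant animals and 3.11 in wild-type animals. The mutant animal of array 4 was the highest of the 4 mutants on 7 of the 12 probes, where it was highest on 17.3% of all probes. For Hp it was the lowest, and for Hpx and Cp it was within the range of the other mutants. Over animals 1 to 3 alone, no probe spanned more than 0.67 units in mutant animals or 0.69 units in wild-type animals.

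Genes with the most similar levels were sought for the 5 probes whose 8 levels spanned over 2 log2 units, by the root mean square difference between mean-centred log2 levels over the 8 animals. The 5 nearest genes to Lcn2 were Orm3 at 0.79 units, the metallothionein Mt2 at 1.19, Saa3 at 1.22, the metallothionein Mt1 at 1.42 and Saa1 at 1.5. Orm3 in turn was nearest to Mt2 at 0.56, Mt1 at 0.75, Lcn2 at 0.79, Orm2 at 0.88 and Nacc1 at 0.99. All of these were highest in wild-type animal 4. Saa3 and Saa1 also fell on arrays 1 to 3, with log2 ratios of -1.17, -2.59 and -2.55 for Saa3. Those of Saa1 were -1.28, -2.86 and -2.64. Over the 4 arrays both passed (limma adjusted p = 0.0203 for Saa3 and 0.0171 for Saa1). The array 4 log2 ratios were -3.94 for Mt2 and -3.18 for Mt1, whereas on arrays 1 to 3 neither went below -0.54. The Mt1 probes differed: the one used here had a mean of -1.10 ± 1.39 (SD, n = 4; limma adjusted p = 0.153). The other was at -0.10 ± 0.28 (limma adjusted p = 0.540), so the nearness of Mt1 rests on 1 probe.

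Orm1 was nearest to Lbp, the gene of the lipopolysaccharide-binding protein, at 0.19 units, then to Tmem176a at 0.25, Apcs at 0.25, Lrg1 at 0.26 and the chemokine gene Cxcl14 at 0.28. Orm2 was nearest to Nacc1 at 0.29, Isyna1, the gene of inositol-3-phosphate synthase, at 0.30, Mt1 at 0.31, Orm1 at 0.35 and Lbp at 0.38. Apcs was nearest to Lbp at 0.22, Prg4, the gene of lubricin, at 0.23, Cyb561 at 0.23, Nacc1 at 0.23 and Orm1 at 0.25. These distances describe 8 animals of which 1 stood apart, and say nothing of shared control.

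**Figure D3:**
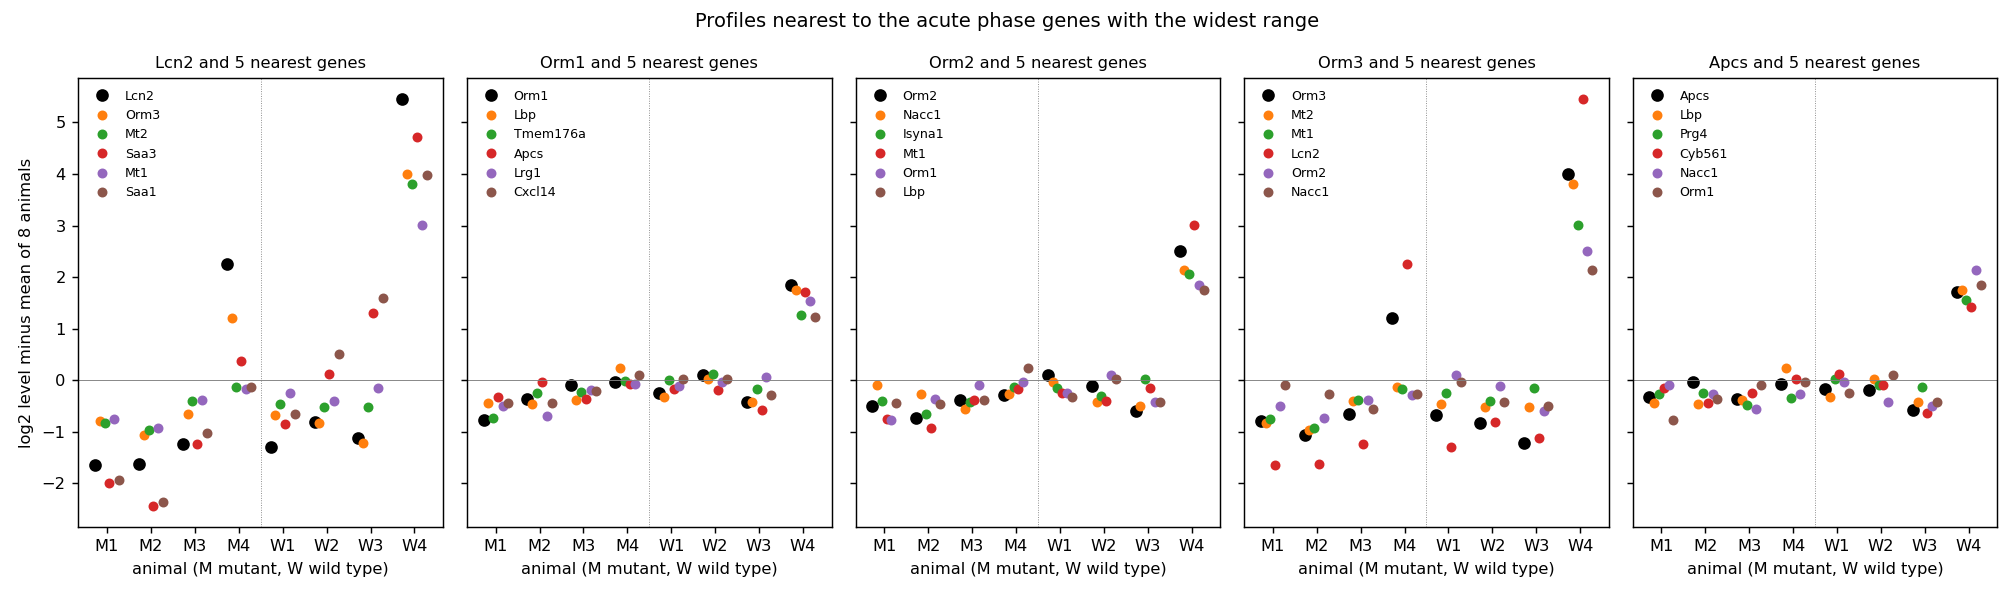
Log2 level minus the mean of the 8 animals for the 5 genes with a range over 2 log2 units (black) and their 5 nearest genes (colours), with the mutant animals M1 to M4 on the left and the wild-type animals W1 to W4 on the right. Wild-type animal 4 is the highest point of each gene, and mutant animal 4 is clearly raised for Lcn2 and Orm3.

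The genes that drive or accompany these reactants were described from 7 lists, by the brightest probe of each gene. Beside the counts in each list stands the share over all probes, of which 12.2% were called in the main fit, 5.97% as higher and 6.27% as lower. Of the 39083 probes, median centring called 4292 higher and 3011 lower, and the processed signals 546 and 724. Without array 4 it was 294 higher and 403 lower, and without array 2 it was 4 and 8. Whether any list departed from these shares was not tested. Of 9 measured inducing cytokines, among them Il6, Il1b and Tnf, 0 passed an adjusted p under 0.05 in limma, and 1, Il1a, had an unadjusted p under 0.05 (median log2 ratio 0.02). The 2 with the smallest p were Il1a, at 0.15 ± 0.03 (SD, n = 4; limma adjusted p = 0.0815), and Il11, at -0.13 ± 0.10 (limma adjusted p = 0.167). The other Il1a probe was at -0.19 ± 0.31 (limma adjusted p = 0.273). On array 4 the Il1b ratio was -0.61 and those of Il6 and Tnf were -0.13 and 0.11.

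In the list of cytokine and endotoxin receptors 1 of 13 was higher, 2 were lower and 10 did not pass (median -0.02). Il1r1, an interleukin-1 receptor gene, had a log2 ratio that fell by 0.62 (SD 0.30, n = 4; limma adjusted p = 0.0242), and Lifr, the receptor gene of leukaemia inhibitory factor, fell by 0.87 (SD 0.35; limma adjusted p = 0.0170). Under median centring Lifr was at -0.47 (limma adjusted p = 0.0405), and its 4 other probes ranged from -0.47 to 0.01 in the authors' ratios. Ly96, which presents endotoxin to the receptor Tlr4, rose by 0.24 ± 0.11 (limma adjusted p = 0.0448), and did not pass with the processed signals (0.10; limma adjusted p = 0.457). Without array 4, Lifr alone of the 3 passed.

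The 23 signalling and transcription factor genes held 5 that fell, 0 that rose and 18 that did not pass by their brightest probe (median -0.16). Over their 46 probes, 8 were lower and 1 was higher. The higher one was a dimmer probe of Nr3c1, at 0.23 (limma adjusted p = 0.0494). Dimmer probes of Jak2 and Irak1 were lower, both at -0.29 (limma adjusted p = 0.0257 and 0.0415). Nfkbiz, an NF-kB cofactor needed for Lcn2 induction, fell by 0.68 (SD 0.30, n = 4; limma adjusted p = 0.0202), and Cebpa, a hepatocyte C/EBP factor, fell by 0.41 (SD 0.13; limma adjusted p = 0.0188). The second Cebpa probe was at 0.15 and did not pass (limma adjusted p = 0.280). The remaining genes lower by their brightest probe were Jak1, Nfkbia and Hnf4a. The other Jak1 probes were at -0.004 and 0.03 and the other Hnf4a probes at -0.005 and -0.16, and none of these passed. Socs3, the feedback inhibitor of STAT3, had discordant probes, the brighter at 0.11 (limma adjusted p = 0.178) and the dimmer at -0.61 (limma adjusted p = 0.0360). Without array 4 none of the 5 that fell passed, with limma adjusted p = 0.0502 for both Nfkbiz and Cebpa. In that fit 1 of the 23 rose and 0 fell. Under median centring 1 of the 23 rose and 1 fell (median -0.05), and with the processed signals 2 fell. Cebpa was at -0.20 under median centring (limma adjusted p = 0.0966) and at -0.35 with the processed signals (limma adjusted p = 0.0566).

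The 19 other positive acute phase genes held 1 that rose, 2 that fell and 16 that did not pass (median -0.26, and -0.12 without array 4). Hamp2, a hepcidin relative, rose by 1.37 ± 0.41 (SD, n = 4; limma adjusted p = 0.0109), and did not pass with an intensity trend (limma adjusted p = 0.422). C4b, a complement gene, fell by 0.48 (SD 0.32; limma adjusted p = 0.0420), with -0.04 under median centring, and did not pass with the processed signals (limma adjusted p = 0.0766) or without array 4 (-0.33; limma adjusted p = 0.0695). Fgl1 fell by 1.79 on its brighter probe (SD 0.78; limma adjusted p = 0.0177), while its other probe passed in the opposite direction at 0.33 ± 0.05 (limma adjusted p = 0.0178). With median centring 9 of the 19 were higher and 1 lower, where 4292 of 39083 probes were called higher and 3011 lower. The calls of this list thus changed with the scaling, as did those over all probes.

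The 11 negative acute phase genes held 4 that rose, 1 that fell and 6 that did not pass (median 0.25). Albumin, Alb, rose by 0.83 ± 0.21 (SD, n = 4; limma adjusted p = 0.0106), with 1.53 under median centring and 0.69 with the processed signals (limma adjusted p = 0.0151). Pon1, a paraoxonase, rose by 0.56 ± 0.29 on its brighter probe (limma adjusted p = 0.0273), and its other probe was lower at -0.45 ± 0.15 (limma adjusted p = 0.0187). F12, a coagulation factor gene, fell by 0.20 (SD 0.03; limma adjusted p = 0.0409), but was higher at 0.28 with median centring. With that centring 9 of the 11 were higher and 0 lower (median 0.83), where 4292 of 39083 probes were called higher and 3011 lower. With the processed signals 1 was higher and 0 lower (median 0.02), where 546 probes were called higher and 724 lower. Pon1, at 1.13 with the centring, was at 0.39 with these signals and did not pass (limma adjusted p = 0.0649). Without array 4, 2 were higher and 0 lower.

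The 13 partners of haem and iron handling held 3 that rose, 0 that fell and 10 that did not pass (median -0.01). The ferritin gene Fth1 rose by 0.67 ± 0.10 (SD, n = 4; limma adjusted p = 0.00834) and the transferrin receptor gene Tfrc by 0.40 ± 0.18 (limma adjusted p = 0.0258). With the processed signals 0 of the 13 passed, Fth1 being at 0.37 (limma adjusted p = 0.0540) and Tfrc at 0.39 (limma adjusted p = 0.0511). Fth1 was at 1.31 under median centring, and without array 4 it was the 1 gene of the 13 that passed. Without array 2, limma called 0 genes in each of the 7 lists, and 12 of all 39083 probes. Cd163, the macrophage receptor for haptoglobin bound to haemoglobin, was at -0.28 ± 0.67 and did not pass (limma adjusted p = 0.437), with -1.27 on array 4. Of 11 measured relatives of the 10 genes, such as Itih1 and Steap3, Ambp was the 1 that passed. It encodes the light chain partner of the inter-alpha-trypsin inhibitors and rose by 0.76 ± 0.23 (limma adjusted p = 0.0130), with 1.43 under median centring, where 4 of the 11 were higher. Cd163 was named after its values were seen, as were Socs3, Jak1, Jak2, Irak1, Nr3c1, Nfkbia, Hnf4a, Il1b, Il6, Tnf and the single neutrophil genes.

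**Figure D4:**
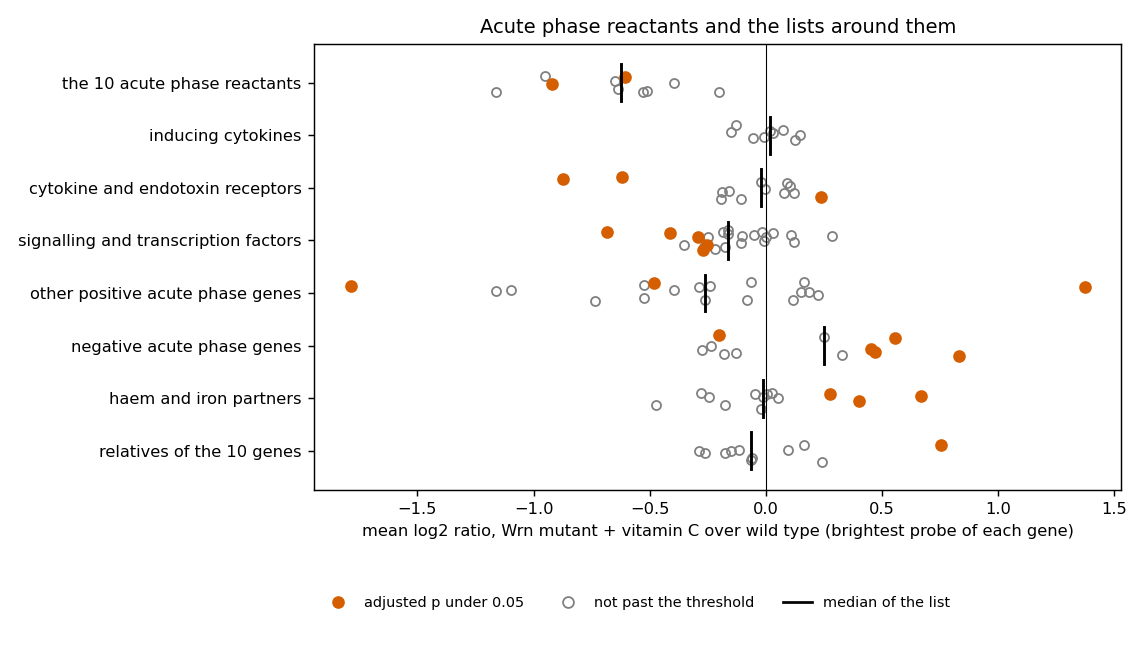
Mean log2 ratio of each gene's brightest probe in the 10 acute phase reactants and in 7 lists of related genes, on a log2 axis, with filled points for a limma adjusted p under 0.05 and a bar at each list's median. The 10 reactants have a median of -0.62 with 2 genes called, and the inducing cytokines have none called.

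Promoter windows, from 250 bases before to 50 bases after the gene start, were held by the RefSeq table of build GRCm38.p6 for 8 of the 10 genes, in 9 windows. They are shown for Lcn2, Orm2 and Orm3, which had the widest ranges of level, and for Hpx and Steap4, which passed the test, because all 5 genes were highest in wild-type animal 4. Both strands were searched for TTGCNNAA (C/EBP), TTCNNNGAA (STAT), GGG and TCC with any 4 bases between them (NF-kB) and ACANNNTGT (glucocorticoid receptor), and capitals mark the matches.
Lcn2 chr2:32387690-32387989, minus strand: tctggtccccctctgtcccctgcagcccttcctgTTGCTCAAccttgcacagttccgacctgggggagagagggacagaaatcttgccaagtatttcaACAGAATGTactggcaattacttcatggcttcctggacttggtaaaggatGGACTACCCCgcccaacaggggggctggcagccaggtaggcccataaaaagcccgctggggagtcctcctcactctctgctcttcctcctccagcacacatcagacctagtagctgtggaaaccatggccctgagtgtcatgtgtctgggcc
Orm2 chr4:63362199-63362498, plus strand: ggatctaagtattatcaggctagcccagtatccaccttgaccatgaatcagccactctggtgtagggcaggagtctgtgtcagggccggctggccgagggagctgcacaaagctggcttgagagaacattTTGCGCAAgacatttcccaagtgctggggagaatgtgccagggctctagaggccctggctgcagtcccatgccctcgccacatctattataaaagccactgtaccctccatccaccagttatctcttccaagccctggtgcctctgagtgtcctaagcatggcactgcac
Orm3 chr4:63355908-63356207, plus strand: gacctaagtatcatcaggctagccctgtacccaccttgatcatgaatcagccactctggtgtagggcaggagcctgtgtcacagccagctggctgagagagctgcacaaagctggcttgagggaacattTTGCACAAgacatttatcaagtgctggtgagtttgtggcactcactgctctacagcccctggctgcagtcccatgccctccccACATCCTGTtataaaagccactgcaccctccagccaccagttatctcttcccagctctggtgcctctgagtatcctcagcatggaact
Hpx chr7:105600067-105600366, minus strand: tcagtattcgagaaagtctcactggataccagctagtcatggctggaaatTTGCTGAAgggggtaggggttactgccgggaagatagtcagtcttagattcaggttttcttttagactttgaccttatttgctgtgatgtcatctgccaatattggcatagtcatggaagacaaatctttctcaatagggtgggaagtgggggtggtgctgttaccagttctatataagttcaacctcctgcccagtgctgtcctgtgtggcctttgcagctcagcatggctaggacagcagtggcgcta
Steap4 chr5:7960222-7960521, plus strand: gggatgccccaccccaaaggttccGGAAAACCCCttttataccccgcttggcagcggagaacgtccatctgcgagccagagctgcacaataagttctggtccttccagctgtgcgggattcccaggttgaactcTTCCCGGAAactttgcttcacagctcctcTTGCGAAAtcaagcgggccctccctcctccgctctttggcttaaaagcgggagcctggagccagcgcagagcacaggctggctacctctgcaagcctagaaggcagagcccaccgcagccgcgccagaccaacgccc
The C/EBP letters were in the windows of 6 of the 8 genes, Lcn2, Orm2, Orm3, Hpx, Steap4 and Cp, and in 10.8% of all 32851 windows. The STAT letters were in those of Apcs, Itih4 and Steap4, and in 8.3% of all windows. The NF-kB letters were in those of Lcn2, Itih4 and Steap4, and in 19.2% of all windows, and the glucocorticoid receptor letters in those of Lcn2 and Orm3, and in 6.8%. No 2 matches overlapped in the windows shown. The Orm2 and Orm3 windows were 86.6% identical over 305 aligned positions, and both held their C/EBP match near the same place, with its first base at position -120 and -121 from the start. A match describes letters in a window and is not a measured site.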

How the data were processed

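RNA from the liver of 4 mice with mutant Wrn that drank vitamin C, and of 4 wild-type mice, was hybridised to 4 two-colour arrays. The intensity values came from Agilent Feature Extraction 10.5.1.1, per the file headers, as median signals and as processed signals. The deposited log2 ratios, mutant over wild type, matched local background subtraction with loess recomputed here (correlation of at least 0.9999 on each array), and the submitters' processing notes list limma. The authors' deposited p-values come from their own comparison, and its score columns (a test statistic, log odds and a signed fold) were not used.

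From these, spots were averaged per probe, and 39083 of 41174 probes were kept that were well above background in either channel on at least 3 arrays. The 4 log2 ratios were tested against 0 with limma 3.58.1 in R 4.3.3 (lmFit and eBayes, two-sided), with Benjamini-Hochberg adjustment over the kept probes and a threshold of 0.05. Each array pairs 1 animal of each group, so the ratio itself is the paired analysis. Levels were the scanner medians after normexp (offset 50), loess and Aquantile, and with no dye swap they are open to dye bias. The number of arrays limits the precision. The share of probes well above background was 82.5% to 95.6% in mutant channels and 84.2% to 96.1% in wild-type channels. Of 169 listed genes, 164 matched by symbol and 1 by accession.

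The 10 genes and all lists were chosen with earlier results of these data known. The text names every probe of the 10 genes, up to 2 genes of each list in each direction by size of ratio (otherwise the 2 of smallest p), and the 5 nearest genes of probes spanning over 2 log2 units. Alternatives changed the background correction, normalization, filter, moderation, array weights, channel pairing, threshold and arrays. The test was run on simulated data first. Promoters came from RefSeq (GRCm38.p6) and were aligned with Biopython 1.88 in Python 3.11.15.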

Additional observations from a re-analysis of the deposited data

Results flagged for a closer look

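Within each group of 4, a single animal or array stood apart in 4 of 36 sets of member values. The limit used would flag about 1 in 20 independent sets by chance. The 36 sets are not independent, since the levels and ratios of all probes come from the same 8 animals. The count therefore cannot be read against that rate. All 4 were on array 4. The Lcn2 level of 12.34 in mutant animal 4 stood apart from the other mutants, and the level of 15.54 in wild-type animal 4 stood apart from the other wild types. The Orm3 level of 14.15 in wild-type animal 4 was likewise far above the other wild types. The Itih4 log2 ratio of -1.22 on array 4 lay far below those of arrays 1 to 3.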

How the results depend on the processing

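All settings below refer to the 12 probes of the 10 genes, the 39083 probes tested, or the probes of the related lists. The number of probes past an adjusted p of 0.05 in limma, 4783, was 7303 with median centring, 1270 with Agilent processed signals, 26 without the replicate block (channels as separate samples), 9457 at 0.1 and 66 at 0.01. Without eBayes moderation it was 0, with 9921 at an unadjusted p under 0.05, and leaving out 1 array gave 12 to 1577, the lowest without array 2. Of the 3 member probes past the threshold, 0 passed without moderation, 0 without the replicate block (Steap4 adjusted p = 0.534 and 0.537, Hpx 0.287) and 0 at 0.01, and leaving out 1 array left 0 to 2. The 27 list probes past it became 45 with median centring, 10 with processed signals, 0 without moderation, 2 without the replicate block, 48 at 0.1 and 1 at 0.01, and 0 to 15 with 1 array left out. The 2794 probes whose groups did not overlap became 326 with processed signals, which, unlike the main levels, were not scaled between arrays. Of the called probes 51.2% were lower, against 41.2% with median centring, 34.4% with an intensity trend, and 65.5% and 66.7% without arrays 1 and 2. The direction turned for Hp (0.49 with median centring, and -0.46 to 0.26 with 1 array left out), Orm3 (-1.06 to 0.071), Apcs (-0.60 to 0.072), the first Cp probe (0.033 with median centring) and the second Cp probe (-0.018 with processed signals, -0.00022 to 0.041 with 1 array left out). In each of these ranges the turned value was the one without array 4. With probes averaged per gene before the fit, Hpx had an adjusted p of 0.0551. The cause of these changes was not tested. Of 168 member probe values under the alternatives, 142 kept direction and side of the threshold and 19 lost the call.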
